A study of Rattus norvegicus with 12 samples.

Results

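The 5 miRs described here, rno-miR-451-5p, rno-miR-144-3p, rno-miR-144-5p, rno-miR-486 and rno-miR-16-5p, are those most often used to read erythrocyte content in blood samples. They were picked by name, by a rule that uses no measured value though results of these data were known, and are 5 of the 426 mature miRs in the count table. Their level relative to rno-miR-23a-3p, a miR that is not enriched in erythrocytes, served as the haemolysis measure. All 12 libraries were made from extracellular vesicles (EVs) of serum, although the sample labels name tendon as the tissue. Each library came from 1 female wild-type Wistar rat, 12 weeks old, whose left Achilles tendon had been punctured with a needle. Treated rats were given rapamycin, an inhibitor of the kinase mTOR, intraperitoneally once daily (2 mg/kg), so that 5 doses had been given at day 7 after injury and 19 at day 21. Control rats had volume-matched vehicle on the same schedule, and 3 rats were sampled per treatment and timepoint. Serum of uninjured rats was not part of the design, and the purity of the EVs, collected by size exclusion from clotted blood drawn by cardiac puncture, was not characterised.

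Mature erythrocytes have no nucleus but keep a large store of miRs, and rupture of the cells during blood collection or clotting releases that store into serum. The genes of miR-144 and miR-451 form one cluster that is switched on by GATA1 as erythroblasts mature, and miR-451 is unusual in that Argonaute 2 rather than Dicer cuts its precursor. Both miR-486, which comes from an intron of the ankyrin gene Ank1 and is also expressed in muscle, and miR-16, a broadly expressed miR that restrains the cell cycle, are abundant in erythrocytes. The ratio of miR-451 to miR-23a is a common test of haemolysis in serum and plasma. In bulk serum, fewer erythrocytes that release their content and less miR per erythrocyte cannot be told apart.

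The mature sequences show how far each of these miRs can be told from others in a read count. Sequences are from RefSeq on build GRCr8, 5′ to 3′, with the seed (bases 2 to 8) in capitals. A sequence was matched for 4 of the 5 miRs and for the reference miR.
rno-miR-451-5p: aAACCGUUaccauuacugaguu
rno-miR-144-3p: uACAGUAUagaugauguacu
rno-miR-144-5p: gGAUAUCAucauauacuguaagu
rno-miR-16-5p: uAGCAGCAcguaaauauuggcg
rno-miR-195-5p: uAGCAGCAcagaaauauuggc
rno-miR-23a-3p: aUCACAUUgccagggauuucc
No other miR of the count table with a matched sequence shared the seed of rno-miR-451-5p, rno-miR-144-3p or rno-miR-144-5p. Among the matched sequences, the nearest other one differed from each of these 3 by 7 bases, and the counting allowed 1 mismatch. Among miRs of the table with a matched sequence, 385 of 426, the seed of rno-miR-16-5p was shared by 4 others, of which rno-miR-195-5p, shown above, was the nearest at 2 mismatches. In the 10 libraries of the study's miR analysis, these 4 had medians from 91.2 CPM (rno-miR-195-5p) to 1275 CPM (rno-miR-497-5p), against 50684 CPM for rno-miR-16-5p, where CPM is the count scaled to a common total of miR counts per library. The reference rno-miR-23a-3p differs from rno-miR-23b-3p by 1 base, so reads of these miRs may have been split between them and the reference level is uncertain to that extent.

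The hairpins are shown because the cluster carries 3 of the 5 miRs, with the mature arms in capitals.
Mir144: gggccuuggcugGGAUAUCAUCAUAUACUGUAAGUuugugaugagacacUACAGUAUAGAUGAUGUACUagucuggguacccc
Mir451a: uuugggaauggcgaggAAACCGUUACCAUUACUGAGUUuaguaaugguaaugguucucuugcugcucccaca
Both lie on the plus strand of chromosome 10, with 89 bases between the hairpins. In Mir144 the 5p arm takes bases 13 to 35 and the 3p arm bases 50 to 69, with a loop of 14 bases between them. In Mir451a the mature sequence, bases 17 to 38, runs across the part where the loop of a usual hairpin would be. The gene of miR-16 matched here is on chromosome 2 and that of miR-23a on chromosome 19.

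Of the 12 libraries, 10 entered the study's miR analysis, with 2 rats per treatment at day 7 and 3 at day 21. Rapamycin day 7 replicate 2 and vehicle day 7 replicate 1 were outside it, with no reason given. They stood apart here as well. The 10 libraries held 16327 to 51391 miR counts and 52.5% to 71.8% of their counts were synthetic spike-ins. The rapamycin library outside the analysis held 51431 miR counts with 24.3% spike-ins, and the vehicle library 95834 with 13.6%. Values are given for all 12 libraries, with tests over the 10 and then over the 12. Reads carried no molecular identifiers, so intervals on shares cover counting error only.

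Together the 5 miRs made up a large share of the EV miRs, between 10.7% and 19.4% of all miR counts in the 10 libraries (mean 14.5% ± 3.09, SD, n = 10). Most of this came from rno-miR-451-5p, rno-miR-16-5p and rno-miR-486, and the arms of miR-144 added at most 0.582% (3p) and 0.508% (5p). The mean share was 12.2% ± 2.08 (SD, n = 2) with vehicle and 13.96% ± 0.674 (SD, n = 2) with rapamycin at day 7. At day 21 it was 13.2% ± 3.52 (SD, n = 3) with vehicle and 17.7% ± 2.22 (SD, n = 3) with rapamycin. The libraries outside the study's analysis lay lowest, at 7.61% with rapamycin and 3.37% with vehicle.

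**Figure D1:**
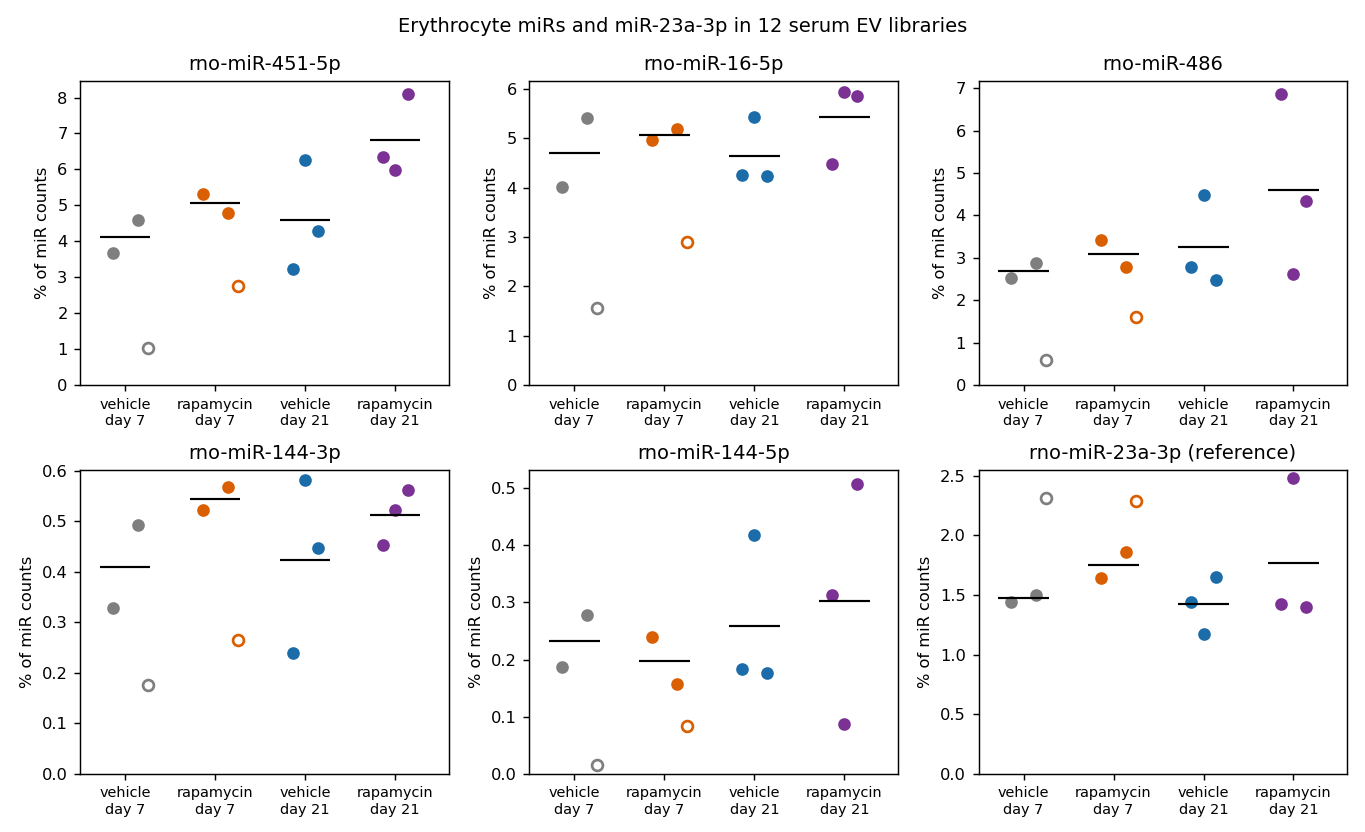
Share of each erythrocyte miR and of the reference rno-miR-23a-3p in the miR counts (y axes, %, each panel on its own scale) by treatment and timepoint. Points are libraries, open points the 2 libraries outside the study's miR analysis, and bars the mean of the filled points. The open points lie lowest in their group for each of the 5 erythrocyte miRs and highest in their group for rno-miR-23a-3p.

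rno-miR-451-5p, which supports the last steps of erythroid maturation, was on average the most abundant of the 5 miRs in the 10 libraries, with 5.26% ± 1.45 of miR counts (SD, n = 10) and a rank among all miRs between 2 and 10. At day 7 it took 3.67% and 4.58% with vehicle and 5.31% and 4.7998% with rapamycin. At day 21 it took 3.24%, 6.27% and 4.29% with vehicle and 6.35%, 5.99% and 8.11% with rapamycin. The day 7 groups did not overlap in these libraries, whereas at day 21 vehicle replicate 2 lay above rapamycin replicate 2. Separation of 2 libraries from 2 allows no exact permutation p below 0.333, and its frequency among all miRs was not counted. In the libraries outside the analysis rno-miR-451-5p was at rank 10 with 2.76% (rapamycin) and at rank 29 with 1.03% (vehicle). With these added, the day 7 groups overlapped.

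rno-miR-16-5p had nearly the same level, 4.98% ± 0.701 (SD, n = 10), and the smallest spread of the 5 miRs, with a coefficient of variation of 14.1% in CPM. At day 7 it took 4.005% and 5.42% with vehicle and 4.96% and 5.18% with rapamycin. At day 21 the values were 4.25%, 5.43% and 4.23% with vehicle and 4.48%, 5.94% and 5.86% with rapamycin. The groups overlapped at both timepoints. The difference between rno-miR-451-5p and rno-miR-16-5p was within the spread between libraries, since their ratio ran from 0.763 to 1.42 over the 10 libraries. The libraries outside the analysis held 2.90% with rapamycin and 1.56% with vehicle.

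rno-miR-486 followed with 3.51% ± 1.38 (SD, n = 10). At day 7 it took 2.52% and 2.88% with vehicle and 3.41% and 2.78% with rapamycin. At day 21 the values were 2.77%, 4.49% and 2.47% with vehicle and 6.85%, 2.61% and 4.33% with rapamycin, so that the groups overlapped at each timepoint. Rapamycin day 21 replicate 1 was the single library among the 10 in which rno-miR-486 exceeded rno-miR-451-5p, with a ratio of rno-miR-451-5p to rno-miR-486 of 0.926 against 1.17 to 2.30 in the rest. The libraries outside the analysis held 1.60% with rapamycin and 0.600% with vehicle.

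rno-miR-144-3p, the arm known to target regulators of the oxidative stress response such as NRF2, stood about an order of magnitude lower, at 0.472% ± 0.111 (SD, n = 10). Its level with vehicle was 0.328% and 0.492% at day 7 and 0.240%, 0.582% and 0.447% at day 21. With rapamycin it was 0.522% and 0.568% at day 7 and 0.453%, 0.523% and 0.563% at day 21. The rapamycin values lay above the vehicle values at day 7 in these libraries, while the day 21 groups overlapped. With 2 libraries against 2 no exact permutation p below 0.333 is possible, and how often all miRs separate in this way was not counted. The libraries outside the analysis held 0.264% with rapamycin and 0.175% with vehicle, and the day 7 groups overlapped once they were added. Although both come from one cluster, rno-miR-451-5p outnumbered rno-miR-144-3p by 8.45 to 14.4 in the 10 libraries and by 10.4 and 5.85 in the rapamycin and vehicle libraries outside the analysis.

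rno-miR-144-5p was the lowest and the most variable of the 5 miRs, at 0.255% ± 0.128 (SD, n = 10) with a coefficient of variation of 50.4% in CPM. With vehicle it took 0.186% and 0.278% at day 7 and 0.184%, 0.418% and 0.176% at day 21. With rapamycin it took 0.240% and 0.157% at day 7 and 0.312%, 0.0880% and 0.508% at day 21. The groups overlapped at both timepoints, and rapamycin at day 21 held both the lowest and the highest of the 10 libraries. The vehicle library outside the analysis had 14 counts, 0.0146% (95% Wilson interval 0.00870 to 0.0245%), and the rapamycin library outside it 43 counts, 0.0836%.

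The reference rno-miR-23a-3p, which comes from a cluster with miR-27a and miR-24 and is expressed in many cell types, made up 1.60% ± 0.360 of miR counts (SD, n = 10). It took 1.44% and 1.498% with vehicle and 1.64% and 1.86% with rapamycin at day 7. At day 21 it took 1.44%, 1.17% and 1.65% with vehicle and 1.43%, 2.49% and 1.40% with rapamycin. In contrast to the erythrocyte miRs, its share was high in the libraries outside the analysis, with 2.29% (rapamycin) and 2.31% (vehicle). Among the 10 libraries only rapamycin day 21 replicate 2 was higher.

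The libraries outside the analysis, lowest in erythrocyte share, were highest relative to the calibrators, 7 synthetic RNAs added to each sample. The 5 miRs together had 110.9 to 216.8 counts per 1000 calibrator counts in the 10 libraries. They had 421 in the rapamycin library outside the analysis and 430.0 in the vehicle library. Their raw sums there, 3912 (rapamycin) and 3231 (vehicle) counts, lay within the 2907 to 7014 of the 10 libraries. The calibrator totals there, 9294 and 7514 counts, lay below the 20686 to 32491 of the 10. Whether equal amounts of calibrator had been added was not tested. Relative to the median of the 10 libraries, rno-miR-451-5p per calibrator count was 2.46 times as high in the rapamycin library and 2.11 times as high in the vehicle library. Over the same libraries rno-miR-23a-3p was 6.23 and 14.5 times as high, and all miRs together 4.70 and 10.8 times. rno-miR-144-5p was the exception among the erythrocyte miRs, at 1.62 times in the rapamycin library but 0.652 times in the vehicle library.

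**Figure D2:**
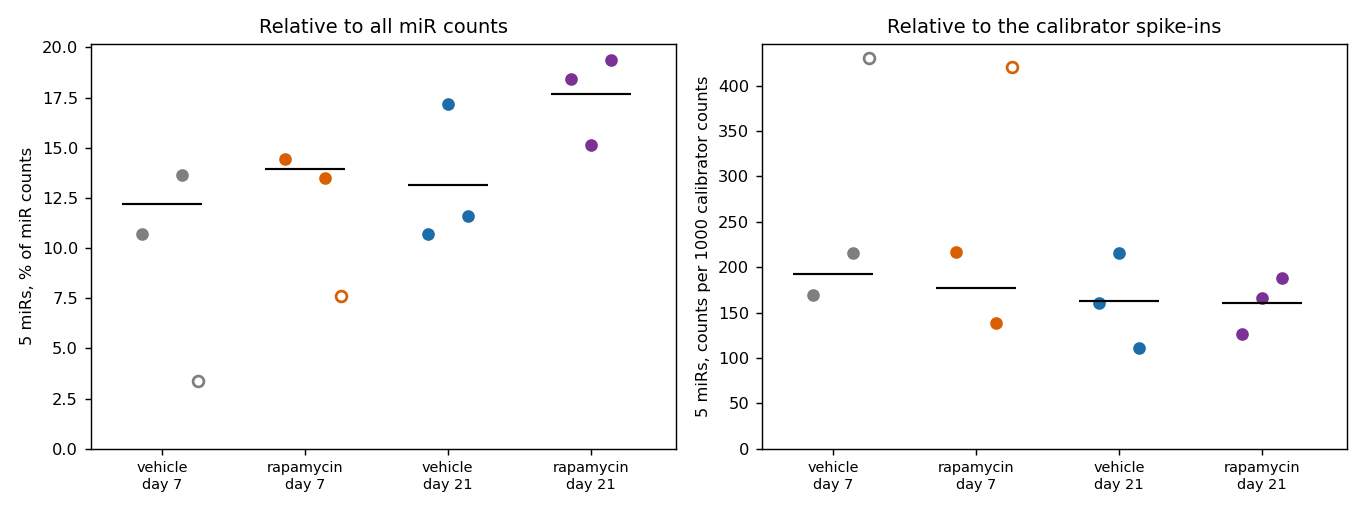
Sum of the 5 erythrocyte miRs as % of miR counts (left) and as counts per 1000 calibrator counts (right) by treatment and timepoint. Points are libraries, open points the 2 libraries outside the study's miR analysis, and bars the mean of the filled points. On the left the open points are the lowest of the 12, at 7.61% and 3.37%, and on the right they are the highest, at 421 and 430.0.

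On the calibrator scale the treatments lay closer together at day 21 than as shares. The sum there was 162.6 ± 52.5 (SD, n = 3) with vehicle and 160.5 ± 31.4 (SD, n = 3) with rapamycin per 1000 calibrator counts, although as shares the rapamycin mean was higher. At day 7 it was 192.5 ± 33.0 (SD, n = 2) with vehicle and 177.5 ± 55.6 (SD, n = 2) with rapamycin. The total of miRs per calibrator count was 1.24 ± 0.277 (SD, n = 3) with vehicle and 0.919 ± 0.212 (SD, n = 3) with rapamycin at day 21. The part of that total in the shares was not tested.

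The haemolysis measure, the log2 ratio of rno-miR-451-5p to rno-miR-23a-3p with 0.5 added to each count, ran from 1.17 to 2.53 in the 10 libraries, which is 2.25 to 5.80 counts of rno-miR-451-5p for each of rno-miR-23a-3p. At day 7 it was 1.35 and 1.61 with vehicle and 1.69 and 1.37 with rapamycin. At day 21 it was 1.17, 2.41 and 1.38 with vehicle and 2.15, 1.27 and 2.53 with rapamycin. Vehicle and rapamycin overlapped at both timepoints. The libraries outside the analysis were the lowest of the 12, at 0.27 with rapamycin and −1.17 with vehicle, the single library with fewer counts of rno-miR-451-5p than of rno-miR-23a-3p.

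**Figure D3:**
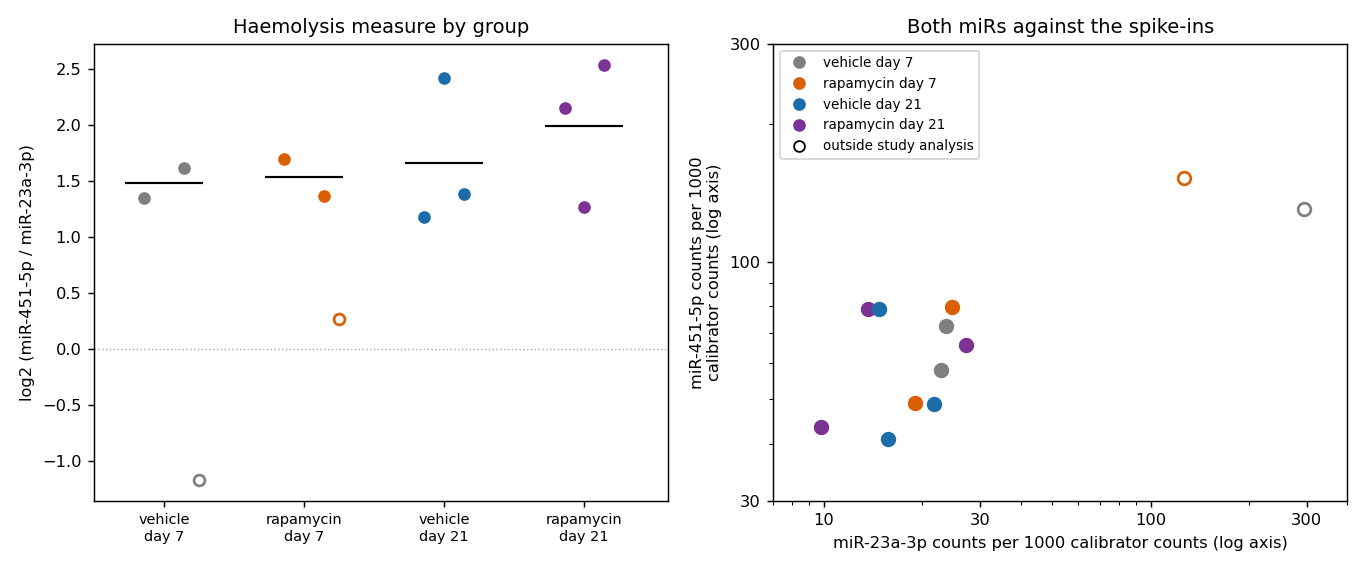
Left, the haemolysis measure (y axis, log2 of rno-miR-451-5p over rno-miR-23a-3p) by treatment and timepoint, with bars at the mean of the filled points. Right, counts of both miRs per 1000 calibrator counts on log axes. Points are libraries and open points the 2 libraries outside the study's miR analysis, which lie lowest on the left but, on the right, highest for both miRs.

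No difference in the haemolysis measure passed an exact permutation test. The mean log2 difference between rapamycin and vehicle was 0.050 at day 7 (two-sided exact p = 0.667, adjusted p = 0.667 over 4 comparisons), where 2 libraries against 2 allow no p below 0.333. At day 21 it was 0.33 (two-sided exact p = 0.6, adjusted p = 0.667), where the smallest possible p is 0.1. With arrangements kept within timepoints the difference was 0.22 (two-sided exact p = 0.55, adjusted p = 0.667), and between day 21 and day 7 within treatments it was 0.32 (two-sided exact p = 0.39, adjusted p = 0.667). Over all 12 libraries the measure was higher at day 21 than at day 7 by 0.97 on the log2 scale (two-sided exact p = 0.095, adjusted p = 0.38). Within-group spread was wide against these differences, with an SD of 0.67 for vehicle and 0.65 for rapamycin at day 21 (n = 3 each). The day 21 difference was 0.054 without rapamycin replicate 3, 0.088 without vehicle replicate 1, 0.69 without rapamycin replicate 2 and 0.71 without vehicle replicate 2.

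The choice of the reference moved these values. With the total of miR counts in place of rno-miR-23a-3p, rno-miR-451-5p was higher with rapamycin by 0.48 on the log2 scale within timepoints (two-sided exact permutation p = 0.0333, adjusted p = 0.133 over 4 comparisons), with a mean difference of 0.30 at day 7 and 0.61 at day 21. With the calibrators as reference the difference within timepoints was 0.084 (two-sided exact permutation p = 0.8, adjusted p = 1). There the difference of day 21 from day 7 was −0.15, opposite in sign to the 0.32 found against rno-miR-23a-3p.

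Both arms of miR-144 are read from the same hairpin, and the 3p arm was the more frequent in each of the 12 libraries. In the 10 libraries the 3p arm made up 65.9% ± 10.3 (SD, n = 10) of the miR-144 counts, from 52.5% to 85.6%. At day 7 its share was 63.8% and 63.9% with vehicle and 68.5% and 78.4% with rapamycin. At day 21 it was 56.6%, 58.2% and 71.8% with vehicle and 59.2%, 85.6% and 52.5% with rapamycin. The day 7 groups, 2 libraries against 2, did not overlap in these libraries, and the day 21 groups did. Such a separation at day 7 allows no exact permutation p below 0.333.

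The libraries outside the analysis had a 3p share of 76.0% with rapamycin and 92.3% with vehicle. The vehicle value rests on 168 counts of the 3p and 14 of the 5p arm (95% exact binomial interval 87.4 to 95.7%) and was the highest of the 12. Across the 10 libraries the arms followed each other only loosely in log2 CPM (r = 0.26, rho = 0.22, n = 10, r = 0.20 without the 2 libraries farthest from the median of rno-miR-144-3p), although they share a precursor and the library depth. The 3p arm followed rno-miR-451-5p more closely than the 5p arm did in the 10 libraries, with r = 0.79 (rho = 0.70) against r = 0.50 (rho = 0.55). Over all 12 libraries the values were close, r = 0.91 for the 3p and r = 0.88 for the 5p arm. With fewer counts in every library, the 5p arm is also more exposed to counting noise. In the 10 libraries the 5p arm went against the reference, with r = −0.84 (rho = −0.88) between rno-miR-144-5p and rno-miR-23a-3p, and r = −0.77 without the 2 libraries farthest from the median. These correlations describe shares of one total and were not tested.

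**Figure D4:**
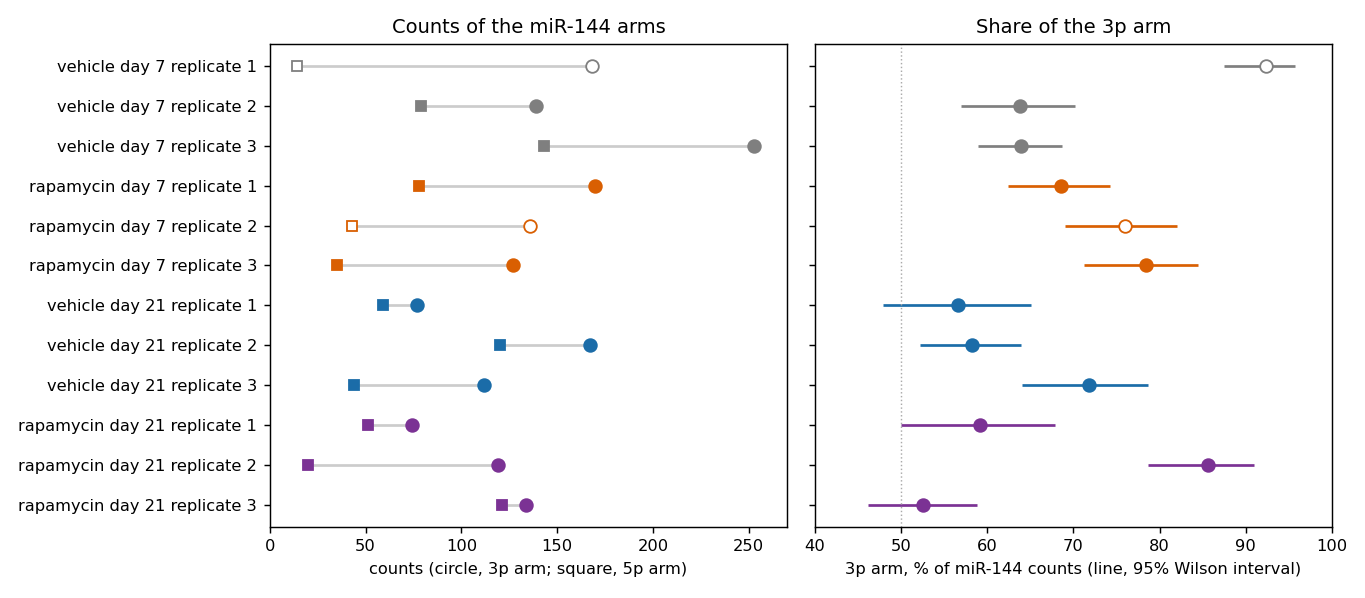
Left, counts of the 3p arm (circles) and the 5p arm (squares) of miR-144 in each library (x axis, counts). Right, the share of the 3p arm in the counts of both arms (x axis, %) with its 95% exact binomial interval, which the axis label names Wilson. Open symbols mark the 2 libraries outside the study's miR analysis. The share runs from 52.5% in rapamycin day 21 replicate 3 to 92.3% in vehicle day 7 replicate 1.

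No difference in the arm ratio passed the exact permutation test. The log2 ratio of 3p to 5p was higher with rapamycin than with vehicle by 0.67 at day 7 (two-sided exact p = 0.333, the smallest that 2 against 2 allow, adjusted p = 0.8 over 4 comparisons) and by 0.34 at day 21 (two-sided exact p = 0.8, adjusted p = 0.8). With all 12 libraries the day 7 difference was −0.19 (two-sided exact p = 1). Without rapamycin day 21 replicate 2, which had 119 counts of the 3p and 20 of the 5p arm, the day 21 difference was −0.39.

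The test across all miRs was edgeR's quasi-likelihood test with TMM normalization and Benjamini-Hochberg adjustment above an abundance cutoff. None of the 5 miRs was called differentially expressed (DE) at an adjusted p of 0.05 in any comparison. A miR below the cutoff of a fit had no adjusted p and could not be called. Only 3 of the 5 lay above it at day 7 in the 10 libraries, and 3 with timepoint as block in the 12. In the other comparisons of these libraries all 5 did. In the 10 libraries, 10% of the miRs above the cutoff were called between rapamycin and vehicle at day 7 and 1.09% at day 21. With timepoint as blocking factor 4.55% were called, between day 21 and day 7 with treatment as blocking factor 2.98%, and for the difference of the treatment effect between timepoints 0.274%. In all 12 libraries the corresponding shares were 0.935%, 0%, 7.69%, 9.05% and 0.34%. At an unadjusted p under 0.05, 0 of the 5 miRs passed at day 7 in the 10 libraries, 1 at day 21 (rno-miR-451-5p), 1 with timepoint as block (rno-miR-451-5p), 1 between the timepoints (rno-miR-486) and 0 for the difference of the treatment effect. Of all 365 miRs in these fits, 14, 15, 21, 20 and 13 passed in the same order. In the 12 libraries 3 of the 5 passed between the timepoints, where 62 of all 426 miRs did, and 0 in each of the other comparisons, where 8 to 15 of the 426 did. With DESeq2's Wald test none was called either, and the smallest unadjusted p over the 5 comparisons was 0.0639, for rno-miR-451-5p with timepoint as block. Two-sided tests were used throughout.

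The largest treatment difference among the 5 miRs was that of rno-miR-451-5p at day 21, whose log2 fold change was 0.57 (standard error, SE, 0.26, edgeR adjusted p = 0.652), or 1.48-fold. Leaving out 1 library moved it between 0.26, without rapamycin day 21 replicate 3 or vehicle day 21 replicate 1, and 0.85, without vehicle day 21 replicate 2. With timepoint as block it was 0.40 (SE 0.19, edgeR adjusted p = 0.270). For rno-miR-486 the log2 fold change was 0.49 at day 21 (SE 0.27, edgeR adjusted p = 0.696) and 0.32 with timepoint as block (SE 0.20, edgeR adjusted p = 0.441). rno-miR-16-5p, rno-miR-144-3p and rno-miR-144-5p had log2 fold changes from 0.21 to 0.28 at day 21. At day 7 the values for the 5 miRs ran from −0.37 (rno-miR-144-5p) to 0.27 (rno-miR-144-3p). The median over the 5 miRs was 0.060 at day 7 and 0.28 at day 21, against 0 over all 365 miRs in the fit at both timepoints. The 365 include miRs with few counts. In the fit to the 131 miRs kept by edgeR's filter for low counts (filterByExpr), the median was 0.075 at day 7 and 0.014 at day 21. The comparisons with timepoint as block reuse the libraries of the single timepoints.

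Between the timepoints, each of the 5 miRs had a positive log2 fold change of day 21 over day 7, with a median of 0.38. The median was −0.053 over all 365 miRs and 0.044 in the fit to the 131 miRs kept by filterByExpr. The largest of the 5 was that of rno-miR-486, 0.50 (SE 0.21, edgeR adjusted p = 0.259), followed by rno-miR-144-5p with 0.48 (SE 0.35, edgeR adjusted p = 0.907) and rno-miR-451-5p with 0.38 (SE 0.19, edgeR adjusted p = 0.564). Over all 12 libraries the differences were larger, with 0.84 for rno-miR-486 (SE 0.31, edgeR adjusted p = 0.0641), 0.88 for rno-miR-144-5p (SE 0.39, edgeR adjusted p = 0.139) and 0.69 for rno-miR-451-5p (SE 0.30, edgeR adjusted p = 0.137). The libraries that this adds are both from day 7 and are those with the lowest summed share of the 5 miRs.

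**Figure D5:**
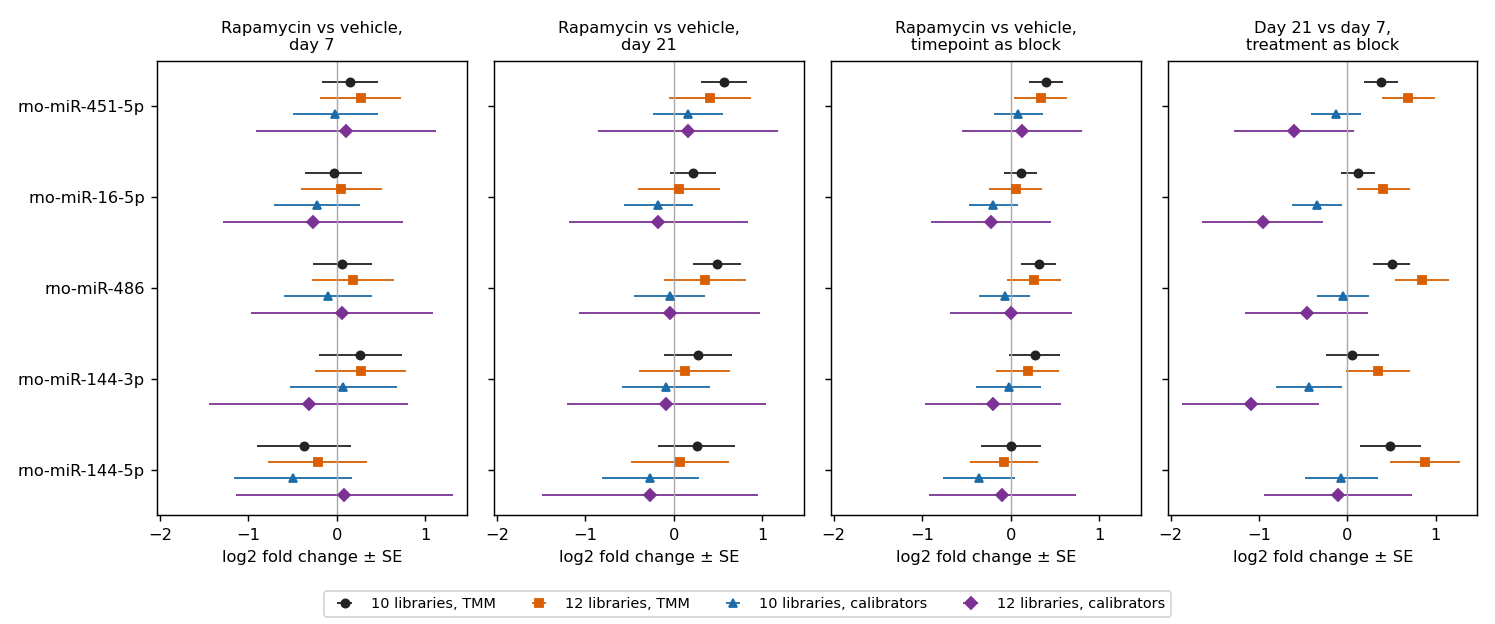
Log2 fold change ± SE (x axes) of each erythrocyte miR from edgeR in 4 comparisons, one per panel. Symbols give the set of libraries and the scaling, by TMM or by the calibrator spike-ins. In the panel of day 21 against day 7, the TMM values are all above 0 and the calibrator values all below 0, from 0.88 for rno-miR-144-5p to −1.10 for rno-miR-144-3p in the 12 libraries.

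One library decided whether any of the 5 miRs was called. Without rapamycin day 21 replicate 2, edgeR called rno-miR-486 at day 21 (log2 fold change 0.74, adjusted p = 0.04995), rno-miR-451-5p (0.43, adjusted p = 0.0495) and rno-miR-486 (0.45, adjusted p = 0.0495) with timepoint as block, and rno-miR-486 between timepoints (0.59, adjusted p = 0.0262). In these fits 7 of 181 miRs above the cutoff were called at day 21, 6 of 26 with timepoint as block and 8 of 159 between timepoints. With the library kept, 1 of 92, 5 of 110 and 5 of 168 were called. That library had the lowest haemolysis measure of its group, 1.27, and the highest share of rno-miR-23a-3p of the 12. None of the other 9 libraries gave a call of the 5 miRs when left out.

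Scaling to the calibrators took away or turned most of these differences. In the 10 libraries it moved the median log2 fold change of all miRs to −0.27 for rapamycin with timepoint as block and to −0.50 for day 21 over day 7. Relative to the calibrators, rno-miR-451-5p then had 0.16 at day 21 and rno-miR-486 −0.047, and between timepoints rno-miR-451-5p had −0.13, rno-miR-486 −0.047 and rno-miR-144-3p −0.44. Between timepoints each of the 5 miRs lay above the shifted median of all miRs, those with few counts included, with rno-miR-144-3p closest to it. Setting values against that median returns to a relative scale like that of TMM, so it is no separate check of the TMM signs. None of the 5 miRs was called by edgeR with calibrator scaling.

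Of 20 further miRs known from erythrocytes and their precursors, 19 were rows of the table and 13 were detected in every library. None of the 19 was called DE by edgeR in the 5 comparisons, in the 10 or the 12 libraries, but many lay below the abundance cutoff and had no adjusted p. In the 10 libraries 5 of the 19 lay above it at day 7, 12 at day 21 and 12 with timepoint as block. Between timepoints 15 did, and 19 for the difference of the treatment effect. In the 12 libraries these numbers were 12, 19, 5, 16 and 18 in the same order. At an unadjusted p under 0.05, 1 of the 19 passed at day 21 in the 10 libraries, against 15 of all 365 miRs, and 0 in the comparisons at day 7, with timepoint as block and between timepoints. The most abundant were rno-miR-92a-3p, with a median of 58535 CPM in the 10 libraries, and rno-miR-19b-3p with 33540 CPM, both of the miR-17-92 family that promotes proliferation, and rno-miR-103-3p with 29683 CPM. At day 21 their log2 fold changes with rapamycin were 0.050 (SE 0.25), 0.32 (SE 0.27) and −0.10 (SE 0.28). Between timepoints 16 of the 19 had a positive log2 fold change of day 21 over day 7, with a median of 0.24. The share of all miRs with a positive value was not counted. Of the 16, rno-miR-182 and rno-miR-96-5p had at most 1 count in any of the 10 libraries. The sum of the 19 was 158238 to 201536 CPM in the 10 libraries, and 125236 and 99892 CPM in the rapamycin and vehicle libraries outside the analysis, so it too was lowest there.

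Markers of other cells were also present. The 6 leukocyte miRs were detected in every library, with a sum of 15350 to 39579 CPM in the 10 libraries. Only 2 of the 6 lay above the abundance cutoff at day 7, and 1 of them, rno-miR-150-5p of lymphocytes, was DE, lower with rapamycin. Of all miRs, 30 lay above that cutoff and 3 were called. At day 7 their sum ranged over 20398 to 22494 CPM in 2 rapamycin and 30737 to 39579 CPM in 2 vehicle libraries of the 10. The libraries outside the analysis had 9994 CPM with rapamycin and 7242 CPM with vehicle, so the day 7 groups overlapped once they were added. The ranges at day 21 were 15350 to 32278 CPM (rapamycin) and 23290 to 28540 CPM (vehicle). The 4 miRs of platelets and endothelium summed to 10160 to 32033 CPM. None was called DE in the 10 libraries, where 2 to 4 of the 4 lay above the abundance cutoff.

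The 7 muscle miRs were at or near 0 in most of the 10 libraries, with a sum of 0 to 1979 CPM and 0 of the 7 detected in every library. The exception outside the analysis was vehicle day 7 replicate 1, with 11082 CPM, of which rno-miR-133a-3p had 1026 counts. In the 10 libraries only 1 of the 7, rno-miR-133a-3p, lay above the abundance cutoff with timepoint as block. It was DE, higher with rapamycin, where 5 of all 110 miRs above the cutoff were called. In the 12 libraries 0 of the 7 lay above the cutoff in that comparison. The hepatocyte miR rno-miR-122-5p was at 0 to 8881 CPM in the 10 libraries, DE between timepoints with lower values at day 21, and at 9100 and 11676 CPM in the rapamycin and vehicle libraries outside the analysis. The part of these cell types in the erythrocyte shares was not tested.

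Likeness was measured among 74 miRs that reached 10 counts in all 12 libraries. The pattern most like that of rno-miR-451-5p over the 10 libraries, by Pearson's r of log2 CPM, was that of rno-miR-144-3p (r = 0.79), followed by rno-miR-484 (r = 0.77) and rno-miR-16-5p (r = 0.73). The same miRs led for rno-miR-16-5p, with rno-miR-484 (r = 0.78), rno-miR-144-3p (r = 0.75) and rno-miR-451-5p (r = 0.73). For rno-miR-144-3p the closest were rno-miR-484 (r = 0.80), rno-miR-451-5p (r = 0.79) and rno-miR-19a-3p (r = 0.78).

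rno-miR-144-5p and rno-miR-486 had other neighbours. The closest to rno-miR-144-5p were rno-miR-142-3p, a miR of blood cells (r = 0.81), rno-let-7i-5p (r = 0.77) and rno-miR-20a-5p (r = 0.71). The closest to rno-miR-486 were rno-miR-25-3p (r = 0.71), rno-miR-144-5p (r = 0.70) and rno-miR-15a-5p (r = 0.68). The arm rno-miR-144-3p came at place 23 of 73 for rno-miR-144-5p. With the 2 libraries outside the analysis added, the r of rno-miR-144-3p and rno-miR-144-5p was 0.73, and that of rno-miR-451-5p and rno-miR-16-5p was 0.95.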

How the data were processed

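Small RNA of serum EVs was sequenced in 12 libraries, 3 per treatment and timepoint. Per the labels and the study's methods, the authors trimmed reads with cutadapt 3.3 (minimum length 17), mapped them with Bowtie 1.3.0 to the rat genome mRatBN7.2 and to miRBase 22.1 (1 mismatch) and counted miRs with miRDeep2 in the miND pipeline. The deposited values are these raw counts per mature miR, without normalization, with 10 spike-in sequences, which were left out of miR totals. Their methods name edgeR 3.32 for testing.

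From the counts, shares, CPM and counts per 1000 counts of the 7 calibrator spike-ins were computed without TMM. Intervals on shares are Wilson intervals at 95%. DE was tested with edgeR 4.0.16 (quasi-likelihood, TMM) on miRs with at least 1 count, 365 in the 10 libraries of the study's miR analysis, with adjustment after independent filtering at the abundance quantile from 0 to 0.95 that gave most calls. Fits to all 12 libraries, DESeq2 1.42.0, other filters and scalings were alternatives. The fit was tested on simulated counts. Log2 ratios, with 0.5 added to counts, were compared with two-sided exact permutation tests. Libraries of a group differed by more than counting noise.

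The 5 miRs and the lists were chosen with earlier results of these data known. Named miRs were the 5, rno-miR-23a-3p, for each of the 5 the 3 miRs with the highest Pearson r of log2 CPM (prior count 2), and from the list of 20 other erythrocyte miRs the 3 most abundant. Others were named after their values were seen. Replicate numbers came from the labels and did not pair libraries.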

Additional observations from a re-analysis of the deposited data

Results flagged for a closer look

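In groups of 4 to 10 libraries, the gap of the highest or lowest library was set against the range of its group (Dixon's test at 95%), for each of the 5 miRs, the haemolysis measure and the arm ratio. Of 49 such groups 9 held an outlying library, where chance gives about 1 in 20. The groups share libraries, so these are not independent.

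Vehicle day 7 replicate 1, outside the study's miR analysis, stood apart from the other 5 vehicle libraries in 6 measures. Its log2 CPM was 13.33 for rno-miR-451-5p (others 14.98 to 15.94), 7.24 for rno-miR-144-5p (others 10.80 to 12.04), 12.55 for rno-miR-486 (others 14.59 to 15.45) and 13.93 for rno-miR-16-5p (others 15.29 to 15.73). Its haemolysis measure was −1.17 (others 1.17 to 2.41) and its log2 ratio of the miR-144 arms was 3.54 (others 0.38 to 1.34). Rapamycin day 7 replicate 2, also outside the analysis, stood apart from the other rapamycin libraries in rno-miR-144-3p, with a log2 CPM of 11.37 against 12.16 to 12.48.

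Among the 10 libraries, rno-miR-486 in vehicle day 21 replicate 2 had a log2 CPM of 15.45, above the 14.59 to 14.81 of the other vehicle libraries. rno-miR-144-3p in vehicle day 21 replicate 1 had 11.24, below the 12.13 to 12.51 of the other day 21 libraries.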

How the results depend on the processing

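None of the 5 miRs was called under any alternative that kept all libraries of its fit, and every call of them came without rapamycin day 21 replicate 2. Where one of them lay below the abundance cutoff of a fit, it could not be called. Leaving out 1 library at a time, 0 to 1 of the 5 were called at day 21, 0 to 2 with timepoint as block and 0 to 1 between timepoints. Where this left a group with 1 library, that library was assumed to vary like the others. The causes of the changes below were not tested.

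The count of all miRs called by edgeR in the 10 libraries, 3 at day 7, 1 at day 21, 5 with timepoint as block, 5 between timepoints and 1 for the difference of the treatment effect, was unstable. DESeq2's Wald test called 0 in each, and filterByExpr left 0, 0, 1, 0 and 0 in that order. DESeq2 size factors gave 5 at day 7 and 3 for the difference of the treatment effect. Without independent filtering 0, 2 and 1 were called at day 21, with timepoint as block and between timepoints. With only the libraries of a timepoint 16 were called at day 7 and 0 at day 21. Calibrator scaling gave 10 between timepoints and 0 for the difference of the treatment effect. All 12 libraries gave 1, 0, 2 and 22 in the first 4 comparisons, and 1, 0, 0 and 137 with calibrator scaling, an alternative chosen after seeing the data. Leaving out 1 library gave 0 to 7 at day 7, 0 to 7 at day 21, 2 to 10 with timepoint as block, 2 to 8 between timepoints and 0 to 10 for the difference of the treatment effect. Without rapamycin day 21 replicate 2 the counts were 7, 7, 6, 8 and 10.

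Same-numbered libraries did not deviate together (r from −0.48 to −0.02 in the 10 libraries), so the numbers were not taken as pairs. With the replicate block 6, 0, 2, 0 and 3 miRs were called in the 10 libraries. There the log2 fold change was −0.078 for rno-miR-144-5p with timepoint as block, and 0.061 for rno-miR-16-5p and −0.12 for rno-miR-486 at day 7. With the block in all 12 libraries, also added after seeing the data, 0, 0, 0, 14 and 0 were called. rno-miR-144-5p then had −0.11 at day 21 and −0.072 with timepoint as block, rno-miR-16-5p 0.17 at day 7, and the arm ratio −0.19 at day 7.

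Signs of single miRs turned mainly with the scaling. With calibrators in the 10 libraries, rno-miR-451-5p had −0.018 at day 7 and −0.13 between timepoints. rno-miR-486 had −0.098 at day 7, −0.047 at day 21, −0.067 with timepoint as block and −0.047 between timepoints. rno-miR-144-3p had −0.084, −0.020 and −0.44, rno-miR-144-5p −0.26, −0.36 and −0.071, and rno-miR-16-5p −0.17, −0.19 and −0.35 at day 21, with timepoint as block and between timepoints. With calibrators in all 12 libraries, rno-miR-144-3p had −0.32, −0.084, −0.20 and −1.10 and rno-miR-144-5p 0.085, −0.27, −0.091 and −0.11 in the first 4 comparisons. rno-miR-16-5p had −0.17, −0.22 and −0.96 in the last 3 of these, rno-miR-451-5p −0.61 between timepoints, and rno-miR-486 −0.047 at day 21 and −0.46 between timepoints. With TMM in all 12 libraries rno-miR-144-5p had −0.073 with timepoint as block, rno-miR-16-5p 0.052 at day 7 and the arm ratio −0.19 at day 7. With DESeq2 or its size factors rno-miR-16-5p had 0.092 at day 7. The haemolysis measure at day 7 was −0.050 against the calibrators and −0.042 with the sum of the 5 miRs in place of rno-miR-451-5p, and between timepoints −0.15 against the calibrators.

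Leaving out 1 library, the haemolysis measure ran from −0.11 to 0.21 at day 7, 0.054 to 0.71 at day 21, 0.053 to 0.41 with timepoint as block and 0.16 to 0.47 between timepoints, and the arm ratio from −0.39 to 0.81 at day 21. rno-miR-144-3p ran from −0.11 to 0.57 at day 21 and −0.19 to 0.12 between timepoints. rno-miR-144-5p ran from −0.70 to 0.0087 at day 7, −0.50 to 0.77 at day 21 and −0.47 to 0.26 with timepoint as block. rno-miR-16-5p ran from −0.20 to 0.25 at day 7, −0.024 to 0.35 at day 21, −0.068 to 0.18 with timepoint as block and −0.030 to 0.17 between timepoints. rno-miR-486 ran from −0.087 to 0.28 at day 7, 0.13 to 0.81 at day 21, 0.096 to 0.49 with timepoint as block and 0.29 to 0.59 between timepoints. rno-miR-451-5p kept its sign, from 0.044 to 0.37, 0.26 to 0.85, 0.17 to 0.55 and 0.16 to 0.43 in the same comparisons. With 14 to 143 counts per library, rno-miR-144-5p is the miR whose values are most limited by depth.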

Other observations

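Relative to the calibrators, miRs did not rise evenly in the libraries outside the study's analysis. Beside rno-miR-451-5p and rno-miR-16-5p, the myeloid miR rno-miR-223-3p was 1.57 times (rapamycin library) and 1.93 times (vehicle library) the median of the 10 libraries, rno-miR-17-5p 1.68 and 2.24 times, rno-miR-92a-3p 2.34 and 3.54 times and rno-miR-93-5p 2.50 and 4.13 times. At the other end the endothelial miR rno-miR-126a-3p was 8.41 and 13.8 times as high, rno-miR-122-5p 10.7 and 31.8 times and rno-miR-133a-3p 26.7 and 736 times. The 19 other erythrocyte miRs, which include rno-miR-17-5p, rno-miR-92a-3p and rno-miR-93-5p, did not rise evenly either. Of these 19, rno-miR-22-3p was 9.43 and 15.2 times as high, rno-miR-185-5p 8.35 and 35.3 times and rno-miR-210-3p 4.33 and 14.2 times. rno-miR-185-5p had 0 to 11 counts in the 10 libraries. How the 19 divide was not counted. The miRs named here were chosen after their values were seen, each value is that of 1 library, and the differences were not tested. The ratios of rno-miR-133a-3p rest on a median near the floor, 117 CPM with 0 to 45 counts in the 10 libraries. The counts of rno-miR-122-5p there were 0 to 289.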
